A study of Homo sapiens with 9 samples.

Results

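The genes described here encode histone acetyltransferases, the enzymes that place the acetyl groups which histone deacetylases (HDACs) remove. The members were KAT2A, KAT2B, CREBBP, EP300, KAT5, KAT6A, KAT6B, KAT7, KAT8 and HAT1, and every probe carrying one of these symbols in the platform annotation was taken. These 10 genes had 11 of the 22177 probes on the array, 2 of them for KAT5 and 1 for each other gene. A probe was tested when it was detected above the negative controls (detection p-value under 0.05) on at least 3 of the 9 arrays. All 10 genes had a probe that passed, and the second KAT5 probe was detected on 0 of 9 arrays and was not tested.

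RNA was profiled on Illumina bead arrays from 3 human leukaemia cell lines, each left untreated or exposed for 6 h to an HDAC inhibitor at 5 µM. The untreated group, the MS-275 group and the SAHA group each held 3 arrays, 1 of NB4, 1 of K562 and 1 of U937. NB4 derives from an acute promyelocytic leukaemia, K562 from the blast crisis of a chronic myeloid leukaemia and U937 is monocytic, while the labels give AML as the source of all of them. SAHA, known as vorinostat, belongs to the hydroxamic acids and blocks zinc-dependent HDACs of more than 1 class. MS-275, known as entinostat, belongs to the benzamides and blocks chiefly HDACs of class I. Both inhibitors were dissolved in DMSO, and the labels do not say whether untreated cells received it, so inhibitor and solvent cannot be told apart. With 1 array for each line and treatment, the lines were the replicates where treatments were compared. The p-values of those comparisons measure the spread among these 3 established lines.

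An acetyltransferase moves an acetyl group from acetyl-CoA to the lysines of histones and of other proteins, which loosens chromatin and creates docking sites for bromodomain proteins. KAT2A (GCN5) and KAT2B (PCAF) are close paralogs that serve as the catalytic subunits of the SAGA and ATAC coactivator complexes. CREBBP (CBP) and EP300 (p300) are large paralogous coactivators recruited by many transcription factors, and both are targets of mutation or translocation in leukaemia. KAT5, KAT6A, KAT6B, KAT7 and KAT8 form the MYST family, each working in a complex with scaffold proteins, some of which serve more than 1 of them. HAT1 acetylates newly made histone H4 before it is assembled into chromatin.

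Promoter windows of KAT2A and CREBBP are shown because these genes had the largest falls with SAHA among the members detected on every array, and that of EP300 because it is the paralog of CREBBP. Each window runs from 250 bases before to 50 bases after an annotated start and is written on the gene's own strand from the RefSeq table for GRCh38.p14. Capitals mark GC boxes, the GGGCGG motif of Sp-family factors on either strand. The KAT2A window lies at chr17:42121318-42121617 on the minus strand, the window of the upstream CREBBP start at chr16:3880664-3880963 on the minus strand, and the EP300 window at chr22:41092342-41092641 on the plus strand.
KAT2A: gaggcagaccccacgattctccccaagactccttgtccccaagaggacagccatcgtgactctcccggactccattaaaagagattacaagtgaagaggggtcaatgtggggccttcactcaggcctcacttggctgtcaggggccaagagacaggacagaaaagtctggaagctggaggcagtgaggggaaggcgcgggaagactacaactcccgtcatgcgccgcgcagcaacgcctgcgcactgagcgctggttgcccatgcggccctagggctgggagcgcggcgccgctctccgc
CREBBP: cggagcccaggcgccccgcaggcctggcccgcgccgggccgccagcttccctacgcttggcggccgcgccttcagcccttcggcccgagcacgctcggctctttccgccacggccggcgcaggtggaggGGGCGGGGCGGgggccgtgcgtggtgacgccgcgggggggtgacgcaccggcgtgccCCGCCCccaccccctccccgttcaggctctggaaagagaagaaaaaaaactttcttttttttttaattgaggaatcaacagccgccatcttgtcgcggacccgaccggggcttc
EP300: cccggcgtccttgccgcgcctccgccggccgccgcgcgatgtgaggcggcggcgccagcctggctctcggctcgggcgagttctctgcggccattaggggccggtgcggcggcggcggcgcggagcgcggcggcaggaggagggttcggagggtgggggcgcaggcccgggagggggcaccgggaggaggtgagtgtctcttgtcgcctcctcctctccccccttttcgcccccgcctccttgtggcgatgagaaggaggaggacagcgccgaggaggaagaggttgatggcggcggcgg
The CREBBP window held 3 GC boxes, of which 2 overlap, and the windows of KAT2A and EP300 held 0. Over the 35116 windows of the table, 45% held at least 1 GC box. CACGTG, the E-box, was found in 7.26% of all windows, CCGGAAG, an ETS motif, in 10.3%, TGACGTCA, the cyclic AMP response element, in 1.85%, and CCAAT in 34.6%, counting both strands, and none of these 4 motifs was in the 3 windows printed. The windows held 18 CpG dinucleotides for KAT2A, 36 for CREBBP and 40 for EP300, beside a median of 14 over all windows. No shared motif of those searched therefore marked the windows of KAT2A and CREBBP. The windows counted for the members came from 8 of the 10 genes, without KAT6A and KAT8. They were 11 windows in all, and 8 of these 11 held a GC box. CREBBP and KAT6B each gave several of these windows, some of them overlapping for KAT6B. The count by window therefore repeats genes, and no enrichment is read from it.

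Levels are log2 normalized intensities, changes are differences of these values with the standard error (SE) of the fit, and n = 3 lines where treatments are compared. A gene was called changed when its adjusted p was under 0.05 in limma, with Benjamini-Hochberg adjustment across the 13836 tested probes. Per array, 11826 to 12705 probes were detected (53.3 to 57.3%), and the number of arrays limits the precision, with a median SE of 0.17 over 11228 genes. Of the markers of the lines, HBG1, HBG2, HBZ and HBE1 stood at 14.3 to 15.0 in K562 and at 6.4 or lower elsewhere. The promyelocytic list did not separate NB4 from U937, since of its 6 genes MPO alone was clearly higher in NB4, at 14.7 to 15.0 there, while AZU1, PRTN3, CTSG and ELANE were higher in U937 and CEBPE stood at 10.2 in both lines without inhibitor. CDKN1A, which encodes the cell cycle inhibitor p21 and is a usual response gene of HDAC inhibitors, rose with SAHA (log2 change 3.21, adjusted p = 0.00159) and with MS-275 (3.19, adjusted p = 0.00579).

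The first comparison asked which acetyltransferase transcripts differed after SAHA. Of the 10 genes, 6 fell and 0 rose: KAT2A, CREBBP, EP300, KAT5, KAT6B and KAT8, and each of these calls was also made when arrays were scaled to equal medians. KAT6B was detected on 0 SAHA arrays, so its call rests on values at background there. Over all 11228 genes tested, 11.8% were called lower and 12% higher with SAHA. The median change was −0.74 over the 10 members and −0.01 over all genes. With equal medians the calls over all genes split into 1007 higher and 1819 lower, in place of 1343 and 1322, and the median of all genes moved to −0.09. KAT2B, KAT6A, KAT7 and HAT1 were not called.

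**Figure D1:**
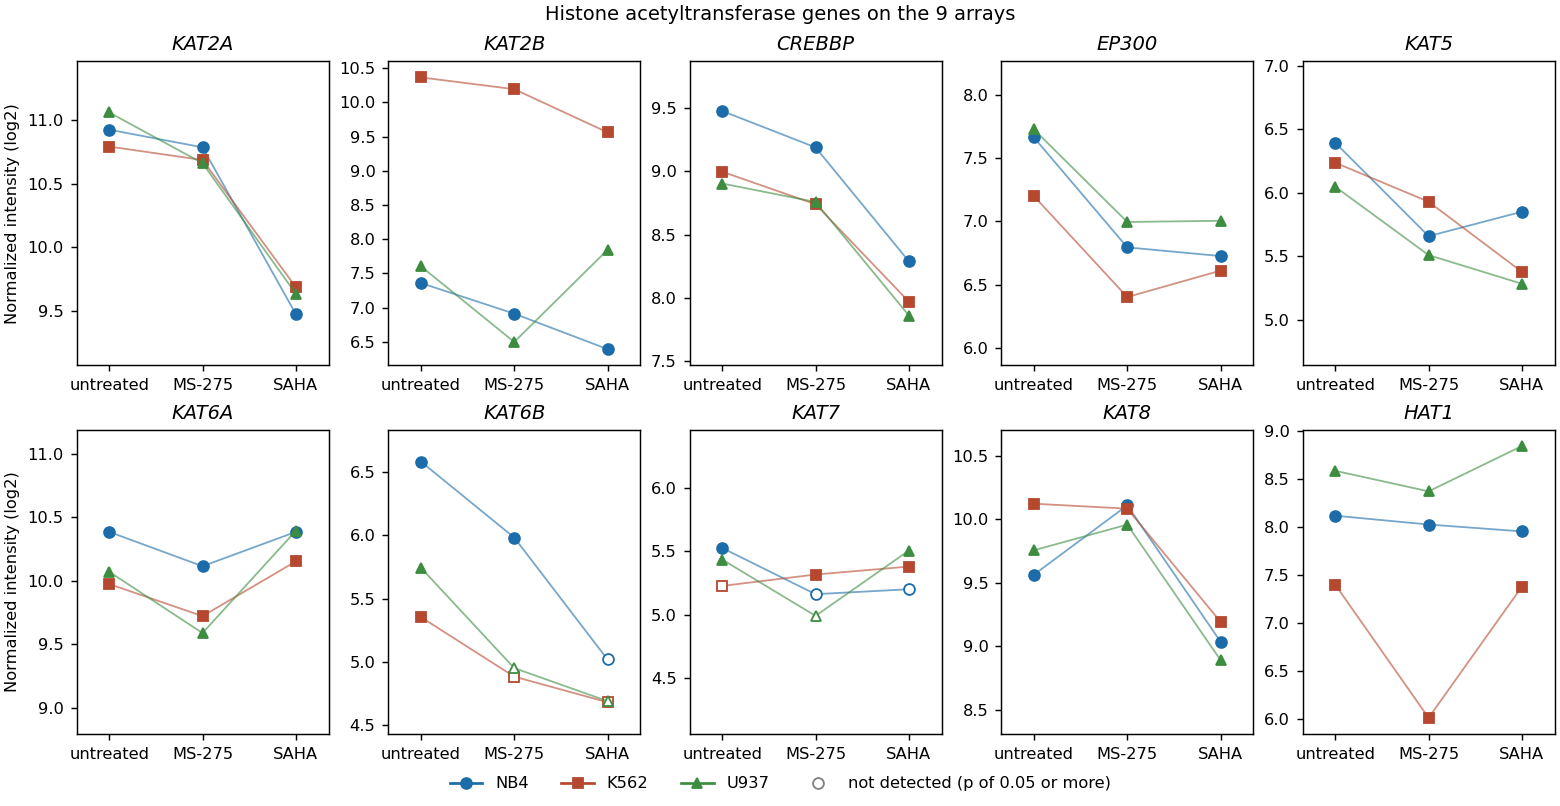
Normalized log2 intensity of the tested probe of each acetyltransferase gene in untreated, MS-275 and SAHA cells, with 1 line and symbol per cell line and open symbols where the probe was not detected; the vertical range differs between panels. KAT2A and CREBBP are lowest in the 3 SAHA arrays, with MS-275 values slightly below the untreated ones in each line. EP300 is low with either inhibitor, and KAT2B is high in K562 under every treatment.

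KAT2A had the largest change with SAHA among the members detected on every array. Its level was 10.93 in NB4, 10.79 in K562 and 11.06 in U937 without inhibitor. With SAHA it was 9.47, 9.68 and 9.63 in the same order of lines. The 3 SAHA arrays were thus all below the 3 untreated arrays, with no overlap. KAT2A fell 2.52-fold (log2 change −1.33 ± 0.13 SE, adjusted p = 0.00167 in limma), with −1.45 in NB4, −1.11 in K562 and −1.43 in U937. This call was kept under all 12 alternative settings tried, including the one without each line in turn. Its MS-275 levels of 10.79, 10.69 and 10.66 lay just under the untreated ones, and the change of −0.22 ± 0.13 was not called (adjusted p = 0.322).

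KAT2B, the paralog of KAT2A, had no call with either inhibitor, and its lines went different ways. Untreated levels were 7.36 in NB4, 10.36 in K562 and 7.60 in U937. With SAHA the level was 6.40 in NB4 and 9.56 in K562, both below the untreated array, and 7.85 in U937, above it. The mean change was −0.51 ± 0.36 (adjusted p = 0.354), and without U937 it was −0.88 (adjusted p = 0.0438). MS-275 gave 6.91, 10.19 and 6.50, so that its lowest value relative to the untreated array was in U937, at −1.10, and the mean change was −0.57 ± 0.36 (adjusted p = 0.319). The 95% interval with SAHA, −1.34 to 0.32, covered changes as large as that of KAT2A.

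CREBBP had the next largest change among the members detected on all 9 arrays. Levels without inhibitor were 9.47 in NB4, 9.0 in K562 and 8.90 in U937, and with SAHA they were 8.29, 7.97 and 7.86. The groups did not overlap, and the 3 lines changed by −1.19, −1.02 and −1.04. CREBBP fell 2.12-fold (−1.08 ± 0.12, adjusted p = 0.00190), and the call was lost only in the fit that ignored the line (adjusted p = 0.100). MS-275 gave 9.19, 8.74 and 8.76, a change of −0.23 ± 0.12 that was not called (adjusted p = 0.229).

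EP300, in contrast to CREBBP, was low with each inhibitor. Its level was 7.66 in NB4, 7.20 in K562 and 7.72 in U937 without inhibitor. SAHA gave 6.73, 6.61 and 7.0, and MS-275 gave 6.79, 6.40 and 7.0. All 6 treated arrays were below the 3 untreated ones. EP300 fell 1.68-fold with SAHA (−0.75 ± 0.12, adjusted p = 0.00661) and 1.74-fold with MS-275 (−0.80 ± 0.12, adjusted p = 0.0142). Without background correction the changes were smaller, −0.49 and −0.52, and still called. The SAHA call was lost without NB4 (adjusted p = 0.0731) or without U937 (0.0638), with changes of −0.65 and −0.76. The MS-275 call was lost without any of the 3 lines (adjusted p = 0.068 to 0.109), while the change stayed between −0.83 and −0.76. Whether the MS-275 changes of CREBBP and EP300 differ from each other was not tested.

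Among the MYST genes, KAT8, the H4 lysine acetyltransferase of the MSL and NSL complexes, stood at 9.56 in NB4, 10.12 in K562 and 9.76 in U937 without inhibitor. With SAHA it stood at 9.04, 9.19 and 8.89, below all untreated arrays. KAT8 fell 1.71-fold (−0.78 ± 0.14, adjusted p = 0.00955), and the call was lost without K562 (−0.70, adjusted p = 0.0557) or without U937 (−0.73, adjusted p = 0.0937). MS-275 gave 10.11, 10.09 and 9.96. Those values were above the untreated array in NB4 and U937 and close to it in K562, and the change of 0.24 ± 0.14 was not called (adjusted p = 0.314) and became −0.07 with arrays scaled to equal medians.

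KAT5 (TIP60), which acetylates histones H4 and H2A and takes part in DNA repair, was dim. Its detected probe read 6.39 in NB4, 6.24 in K562 and 6.05 in U937 without inhibitor, and 5.85, 5.38 and 5.28 with SAHA. The groups did not overlap, and KAT5 fell 1.65-fold (−0.72 ± 0.16, adjusted p = 0.0168). The size depended on the background correction, with −0.34 when none was applied and −0.45 at an offset of 50, both called (adjusted p = 0.0346 and 0.0247). The call was lost without any of the lines (adjusted p = 0.053 to 0.127), with changes of −0.81 to −0.65. MS-275 gave 5.66, 5.93 and 5.51, also below every untreated array, and the change of −0.53 ± 0.16 did not pass the test (adjusted p = 0.0734). The second KAT5 probe lay between 4.85 and 5.26 on all arrays.

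KAT6B (MORF), a MYST gene rearranged in some leukaemias, was near the limit of detection. It read 6.58 in NB4, 5.35 in K562 and 5.74 in U937 without inhibitor and was detected on these 3 arrays. With SAHA it read 5.02, 4.68 and 4.69 and was detected on 0 arrays, so its level there is only bounded. KAT6B was at least 1.59-fold lower with SAHA. The bound sets the untreated mean against the lowest signal of the detected probes on each SAHA array. The fitted change of −1.09 became −0.61 without background correction and also at an offset of 50, and remained called. The call was lost without NB4 (fitted change −0.86, adjusted p = 0.0513) or without U937 (−1.12, adjusted p = 0.0664). With MS-275 it read 5.98, 4.88 and 4.95 and was detected in NB4 alone, and the change was not called (adjusted p = 0.0794). KAT6B passed the detection filter through the 3 untreated arrays and that 1 treated array.

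KAT6A (MOZ), the paralog of KAT6B and a partner in leukaemic fusion genes, showed no call against untreated cells. Its levels were 10.38, 9.97 and 10.07 in untreated NB4, K562 and U937, 10.38, 10.15 and 10.39 with SAHA, and 10.11, 9.72 and 9.59 with MS-275. The changes were 0.17 ± 0.14 with SAHA (adjusted p = 0.439), turning to −0.015 with equal medians, and −0.34 ± 0.14 with MS-275 (adjusted p = 0.156). KAT7 (HBO1), which acetylates H3 and H4 near replication origins, was detected on 5 of 9 arrays and read 4.99 to 5.53 throughout. Its changes were −0.03 with SAHA (adjusted p = 0.909) and −0.24 with MS-275 (adjusted p = 0.356), and on the remaining arrays its signal gave no level above background.

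HAT1 differed between lines in its MS-275 values. It stood at 8.12 in NB4, 7.40 in K562 and 8.58 in U937 without inhibitor, and at 7.95, 7.38 and 8.84 with SAHA. MS-275 gave 8.02, 6.01 and 8.37, so that the change was −1.39 in K562 while in NB4 and U937 it was −0.09 and −0.21. The mean changes were 0.02 ± 0.28 with SAHA (adjusted p = 0.964), turning to −0.11 with equal medians, and −0.56 ± 0.28 with MS-275 (adjusted p = 0.221). Without K562 the MS-275 change was −0.15.

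**Figure D2:**
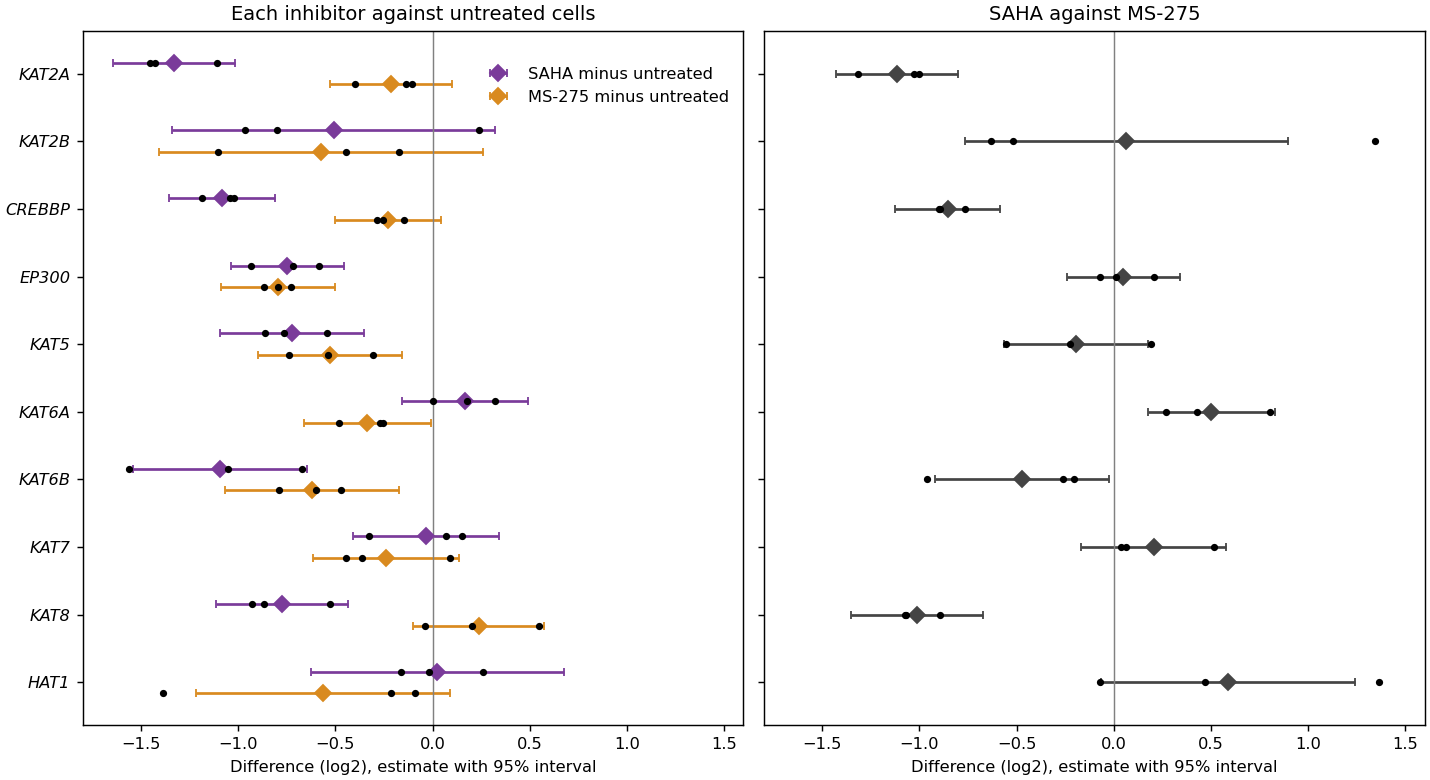
Log2 differences of the 10 acetyltransferase genes, at left for SAHA and for MS-275 against untreated cells and at right for SAHA against MS-275. Diamonds are the fitted values with 95% intervals and small black points are the 3 lines; for KAT6B, not detected on any SAHA array, the fitted value is not a measured fold. The SAHA intervals of KAT2A and CREBBP lie below the MS-275 ones, while those of EP300 cover each other.

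With MS-275, EP300 alone among the 10 genes was called, and 0 rose. Over all genes 7.52% were called lower and 4.36% higher. In size, 9 of the 10 members were below 0, beside 52.2% of all genes, with a median of −0.43 against −0.02 over all genes. In limma 4 members had an unadjusted p under 0.05, a count without a share over all genes to set beside it. The number of calls depended on the scaling. With arrays set to equal medians, 5 members were called lower, namely KAT2A, CREBBP, EP300, KAT5 and KAT6A, and over all genes 374 were higher and 1849 lower in place of 490 and 844. That scaling moved the median of all genes from −0.02 to −0.14. Relative to the median of all genes under that scaling, EP300 differed by −0.74, KAT6A by −0.48, KAT5 by −0.39, and KAT2A and CREBBP by −0.37 each.

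A further comparison set SAHA, the hydroxamic acid, against MS-275, the benzamide, at the same 5 µM and 6 h. They were the only pair of compounds compared, and p-values were adjusted over all probes. SAHA gave lower levels than MS-275 for 3 of the 10 genes and higher levels for 1, where over all genes 10.3% were lower and 13.5% higher. KAT2A was 2.17-fold lower with SAHA (−1.12 ± 0.13, 95% interval −1.43 to −0.80, adjusted p = 0.00276), and this call was kept under all 12 alternatives. CREBBP was 1.81-fold lower (−0.85 ± 0.12, interval −1.12 to −0.58, adjusted p = 0.00397). KAT8 was 2.02-fold lower (−1.01 ± 0.14, interval −1.35 to −0.67, adjusted p = 0.00453). In each of these genes the 3 SAHA arrays lay below the 3 MS-275 arrays. Without U937 the CREBBP and KAT8 calls were lost (−0.83 and −0.98, adjusted p = 0.0569 and 0.063).

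KAT6A was 1.42-fold higher with SAHA than with MS-275 (0.50 ± 0.14, interval 0.18 to 0.83, adjusted p = 0.0391). Its 3 SAHA arrays read 10.15 to 10.39 and its MS-275 arrays 9.59 to 10.11, without overlap. The call was lost without any of the lines (adjusted p = 0.0927 to 0.253, changes of 0.35 to 0.62) and in the fit on the 6 treated arrays alone (adjusted p = 0.102).

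The inhibitors did not differ past the threshold for the other 6 genes. The interval of SAHA minus MS-275 was −0.24 to 0.34 for EP300, −0.57 to 0.18 for KAT5 and −0.17 to 0.58 for KAT7. For EP300 it leaves out a difference of the size found for KAT2A, CREBBP or KAT8. It was wider for KAT2B, at −0.77 to 0.90, where NB4 and K562 differed by −0.52 and −0.63 and U937 by 1.35. For HAT1 it was −0.06 to 1.24, with 1.37 in K562. KAT6B was detected on 1 of these 6 arrays, so the inhibitors could not be compared for it.

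Markers of the lines moved with the inhibitors as well. Of 6 monocytic markers, 1 rose with MS-275, CD68 (0.77, adjusted p = 0.0154), and the log2 of their summed level went from 11.30 to 13.13 in NB4, from 11.29 to 11.92 in K562 and from 13.87 to 14.33 in U937. With SAHA the sums were 12.01, 11.23 and 13.40. Of 6 promyelocytic markers, 1 fell with SAHA, CEBPE (−1.71, adjusted p = 0.0072), and the log2 of their sum was 15.35 untreated and 15.44 with SAHA in NB4. Of 8 erythroid markers, 0 were called with either inhibitor over the 3 lines. In K562, the line that carries most of them, GATA1 read 10.82 untreated and 8.69 with SAHA, TAL1 8.76 and 6.05, KLF1 9.72 and 7.04, and EPOR 8.29 and 6.49, while the log2 of the sum, made up mostly of globin signal, was 16.88 and 16.75. The part of these shifts in the changes of the acetyltransferase genes was not tested.

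The lines were also compared with each other over the 3 treatments. There the 3 arrays of a line, each under another treatment, stood as its replicates. The p-values thus measure how line differences varied between treatments, not a spread among cultures of the same line. KAT2B showed the widest contrast among the members. It was 8.86-fold lower in NB4 than in K562 (−3.15 ± 0.36, adjusted p = 0.000301) and 6.59-fold higher in K562 than in U937 (2.72 ± 0.36, adjusted p = 0.000541). The 3 K562 arrays, at 9.56 to 10.36, were above all NB4 and U937 arrays, at 6.40 to 7.85. NB4 and U937 did not differ beyond their spread (−0.43 ± 0.36, adjusted p = 0.373). KAT2A, the paralog, was level across the lines, with differences between −0.06 and 0.01 and adjusted p-values of 0.718 to 0.972.

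HAT1 was lowest in K562. It was 2.15-fold higher in NB4 than in K562 (1.10 ± 0.28, adjusted p = 0.0132; 0.65 without the MS-275 arrays, adjusted p = 0.0404) and 3.18-fold lower in K562 than in U937 (−1.67 ± 0.28, adjusted p = 0.00179), and no K562 array reached an array of another line. NB4 and U937 were not separated by the test (−0.57 ± 0.28, adjusted p = 0.141). CREBBP was 1.33-fold higher in NB4 than in K562 (adjusted p = 0.0198) and 1.39-fold higher in NB4 than in U937 (adjusted p = 0.0129), and EP300 was 1.42-fold lower in K562 than in U937 (−0.50, adjusted p = 0.0113), a difference of −0.32 without background correction. KAT6B was called higher in NB4 than in K562 (adjusted p = 0.00657) and than in U937 (adjusted p = 0.0175), but it was detected on 2 NB4 arrays and on 1 array of each other line, so these contrasts hold arrays at background and give no measured fold. In untreated cells, where each line had a detected level, KAT6B read 6.58 in NB4, 5.35 in K562 and 5.74 in U937.

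In all, 3 members were higher and 1 lower in NB4 than in K562, where 26.3% and 24.4% of all genes were. Against U937, 2 were higher and 0 lower in NB4, with 23.6% and 21.4% of all genes. Between K562 and U937, 1 was higher and 2 lower in K562, with 27.8% and 25.9% of all genes. With arrays scaled to equal medians, 5 members were higher and 1 lower in NB4 than in K562, with EP300 and KAT6A added, beside 3350 and 2336 of all genes. Nothing particular to the members is read from these counts. The CREBBP calls were lost without any of the treatments (adjusted p = 0.0555 to 0.148), those of KAT6B without the untreated or the MS-275 arrays (0.0615 to 0.139), and that of EP300 without the untreated or the MS-275 arrays (0.0824 and 0.0838).

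**Figure D3:**
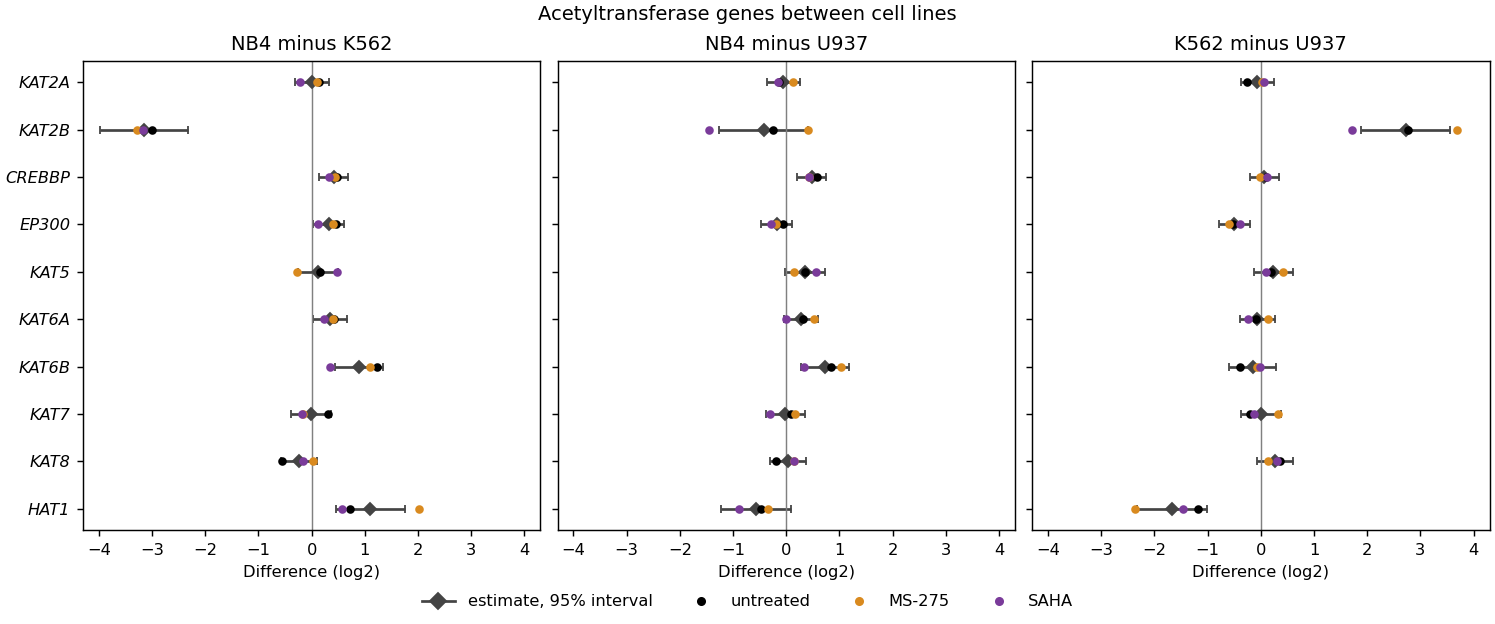
Log2 differences between cell lines for the 10 acetyltransferase genes, with fitted values over the 3 treatments as diamonds with 95% intervals and the difference under each treatment as points. KAT2B in K562 is far from both other lines, HAT1 is lowest in K562, and the fitted values of the other genes lie within 1 log2 unit of 0.

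The test of line dependence used the mean of the SAHA and MS-275 changes in each line and asked whether that mean differed between lines. A line dependence of the response to either inhibitor alone was not tested. In limma 0 of the 10 members and 0 of 11228 genes (0%) passed at an adjusted p under 0.05, with 0 members and 529 genes at an unadjusted p under 0.05. The lowest adjusted p among the members was 1.00. The test had 2 residual degrees of freedom. The opposite signs of KAT2B in U937 and the low HAT1 in K562 with MS-275 rest on single arrays. They entered the test only as part of the mean over both inhibitors.

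Complex subunits, other partners and modulators, histone chaperones, other acetyltransferases and genes of acetyl-CoA supply were followed in 8 lists with 100 genes. The tests covered 83 of them, and 3 of the genes stand in more than 1 list. Of these 83 genes, 4 rose and 24 fell with SAHA (median −0.21), and 3 rose and 10 fell with MS-275 (median −0.17). The lists were chosen with earlier results of these data known, and their counts are a description. Beside them, and beside those of each list, stand 11.8% of all genes lower and 12% higher with SAHA, and 7.52% lower and 4.36% higher with MS-275.

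Of 20 tested SAGA and ATAC subunits, the partners of KAT2A and KAT2B, 6 fell and 1 rose with SAHA (median −0.22). ZZZ3, an ATAC subunit, fell 3.50-fold (−1.81 ± 0.29, adjusted p = 0.00560), TADA1, a SAGA adaptor, fell 2.96-fold (−1.56 ± 0.20, adjusted p = 0.00287), and SGF29, the SAGA reader of methylated H3, fell 2.37-fold (−1.24 ± 0.14, adjusted p = 0.00228). TAF12, shared by SAGA and TFIID, rose 1.62-fold (adjusted p = 0.00958). With MS-275, 4 fell and 1 rose (median −0.34), among them TAF5L, a SAGA core subunit (−1.24 ± 0.19, adjusted p = 0.0131), WDR5 (−1.04, adjusted p = 0.0135) and MBIP (−0.87, adjusted p = 0.0241). These values are those of the brightest probes, and another probe gave −0.51 for TAF5L and −0.82 for WDR5. TADA3, an adaptor beside KAT2A in both complexes, rose (0.68, adjusted p = 0.0303; 0.52 on another probe). MBIP was 1.78-fold lower with MS-275 than with SAHA (adjusted p = 0.0141), as was TAF5L on its brightest probe (adjusted p = 0.0203) but not on its other probe, which changed by −0.53 with SAHA and −0.51 with MS-275. SGF29 and ZZZ3 were lower with SAHA than with MS-275, by 2.11-fold and 2.23-fold (adjusted p = 0.00376 and 0.0271).

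Among 15 tested TIP60 subunits, the partners of KAT5, 8 fell and 0 rose with SAHA (median −0.58). Of these 8, EPC1 and EPC2 were detected on 0 SAHA arrays, so their levels there are only bounded. EPC1, a scaffold of the complex, was at least 2.58-fold lower with SAHA as a mean over the lines with the main background correction. The adjusted p of 0.00160 in limma belongs to its fitted change. ING3, a reader of methylated H3, fell 3.54-fold on its brighter probe (−1.82 ± 0.24, adjusted p = 0.00295), while its other probe changed by −0.40. TRRAP, the large scaffold shared with SAGA, stood at 11.69, 11.10 and 11.38 in untreated NB4, K562 and U937 and at 10.97, 9.96 and 10.38 with SAHA, and fell 1.94-fold (adjusted p = 0.00380). With MS-275, 2 fell and 0 rose (median −0.17), EPC1 (−1.08, adjusted p = 0.0158) and MEAF6 (−1.01, adjusted p = 0.0112).

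The BRPF, JADE and ING partners of KAT6A, KAT6B and KAT7 held the largest change of all lists. Of 7 tested, 4 fell and 0 rose with SAHA (median −0.61). JADE2, a scaffold of KAT7 complexes, read 9.52, 7.92 and 8.75 in untreated NB4, K562 and U937, then 7.65, 6.52 and 7.09 with MS-275 and 6.52, 5.50 and 6.15 with SAHA. Each line thus went down from untreated to MS-275 to SAHA. JADE2 fell 6.36-fold with SAHA (−2.67 ± 0.15, adjusted p = 0.00112) and 3.13-fold with MS-275 (−1.64 ± 0.15, adjusted p = 0.00579), and it was 2.04-fold lower with SAHA than with MS-275 (adjusted p = 0.00453). JADE1 fell 3.62-fold with SAHA on its brightest probe (adjusted p = 0.00735), and its other probes gave −1.30 and −0.12. BRPF3, another scaffold, fell 2.74-fold with SAHA (adjusted p = 0.00293) and changed by 0.17 with MS-275 (adjusted p = 0.588). With MS-275, 2 of the 7 fell, JADE2 and MEAF6, and 0 rose (median −0.40). KAT7 itself was detected on 5 of 9 arrays, as given above.

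Of 9 tested MSL and NSL partners of KAT8, 3 fell and 0 rose with SAHA (median −0.52). HCFC1, the host cell factor of the NSL complex, went from 11.84, 11.60 and 11.74 to 9.94, 9.59 and 10.07 in NB4, K562 and U937 and fell 3.63-fold (−1.86 ± 0.13, adjusted p = 0.00112). MCRS1 fell 2.13-fold (adjusted p = 0.0104; −1.16 on its other probe) and KANSL1, the NSL scaffold, fell 1.94-fold (adjusted p = 0.00538). With MS-275 HCFC1 changed by −0.42 (adjusted p = 0.0739), and the 2 genes that fell were WDR5 and KANSL2 (−0.82, adjusted p = 0.0130), with a median of −0.26 over the list. HCFC1 was 2.71-fold lower with SAHA than with MS-275 (adjusted p = 0.00184), the same direction as KAT8.

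**Figure D4:**
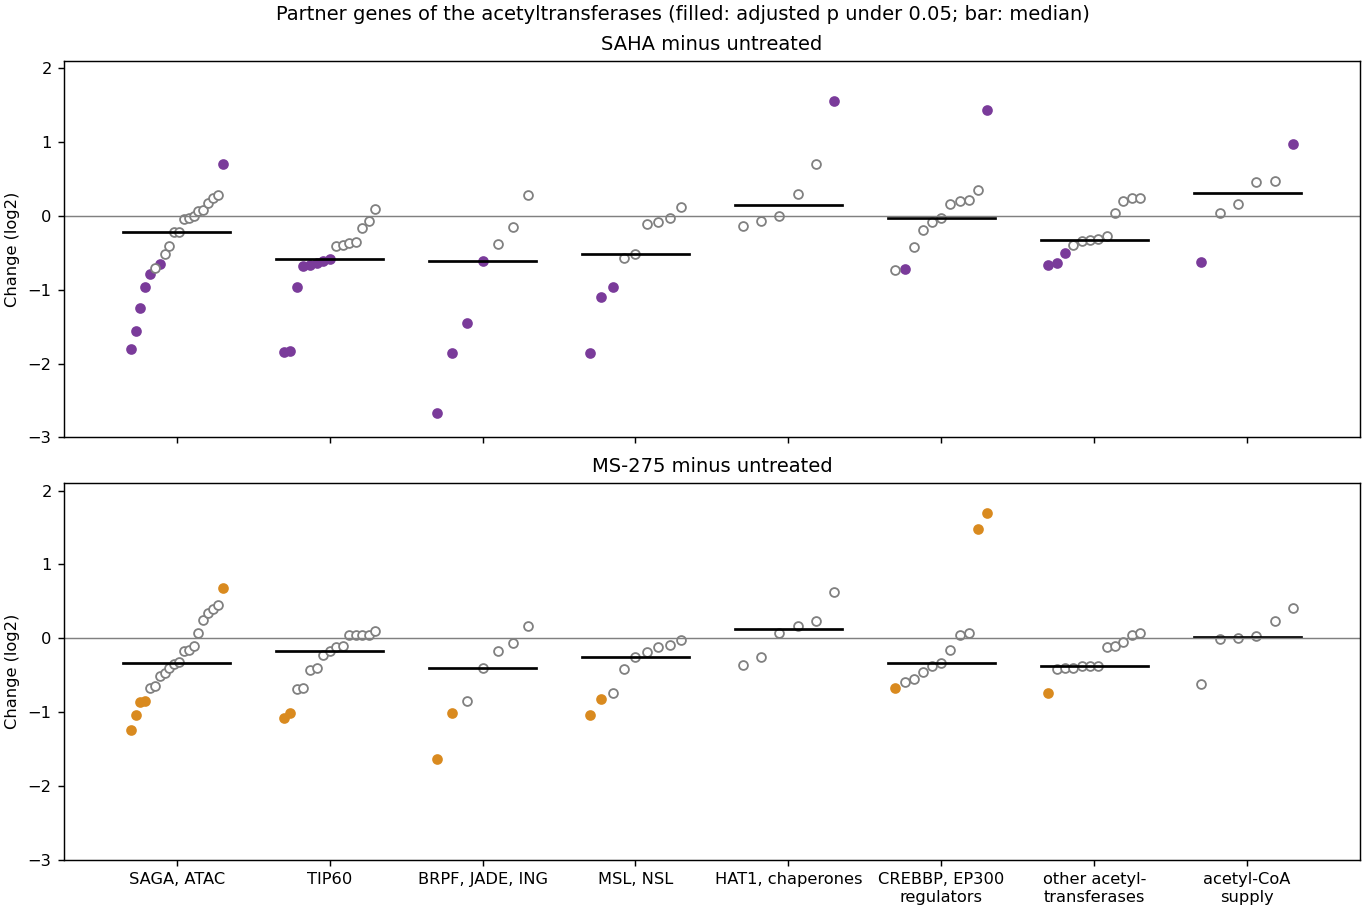
Log2 change with SAHA (top) and MS-275 (bottom) of each tested gene in the 8 lists of partners and related genes. Filled points are genes called at an adjusted p under 0.05, open points are the others, and a bar marks the median. EPC1 and EPC2, undetected with SAHA, are drawn at their fitted values. The TIP60, BRPF and MSL lists have no called gene above 0, and JADE2 is the lowest point in both panels.

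In the remaining 4 lists, 0 to 1 genes rose and 0 to 3 fell with SAHA. Of 6 HAT1 partners and histone chaperones, 1 rose with SAHA, ASF1B, which hands newly made H3 and H4 to assembly factors (2.96-fold, 1.57 ± 0.27, adjusted p = 0.00716), and 0 were called with MS-275 (medians 0.16 and 0.12). Of 11 tested partners and modulators of CREBBP and EP300, 1 rose and 1 fell with SAHA, and 2 rose and 1 fell with MS-275 (medians −0.02 and −0.34). CITED4, a binding partner of both coactivators, rose 2.71-fold with SAHA (adjusted p = 0.0176) and 3.25-fold with MS-275 (adjusted p = 0.0214). CITED2, its relative, rose 2.79-fold with MS-275 (adjusted p = 0.0313) and was 2.19-fold lower with SAHA than with MS-275 (adjusted p = 0.0423). TCF3 fell with SAHA (−0.72, adjusted p = 0.0217) and EID1, an inhibitor of p300 activity, fell with MS-275 (−0.68, adjusted p = 0.0292).

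Of 12 other acetyltransferases tested, 3 fell with SAHA, ELP3 of the Elongator complex (−0.66, adjusted p = 0.0211), NAT10, an RNA acetyltransferase (−0.64, adjusted p = 0.0115), and GTF3C4 of TFIIIC (−0.50, adjusted p = 0.0409), and 1 fell with MS-275, GTF3C4 (−0.75, adjusted p = 0.0218), with list medians of −0.32 and −0.37. Of 6 genes of acetyl-CoA supply, ACSS2, the cytosolic and nuclear acetyl-CoA synthetase, rose 1.96-fold with SAHA (0.97, adjusted p = 0.0168; 0.55 on another probe), DLAT of the pyruvate dehydrogenase complex fell 1.53-fold (adjusted p = 0.0319), and 0 were called with MS-275 (medians 0.32 and 0.02).

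Genes with a pattern like that of KAT2A were sought over the 9 arrays after removal of each line's mean. The 5 highest Pearson correlations were those of LIG3, a DNA ligase (r = 0.995), C9orf40 (0.993), NSUN4, a mitochondrial RNA methyltransferase (0.993), ADNP, a homeodomain protein (0.992), and POGLUT3 (0.991). All 5 fell with SAHA, from 2.03-fold for C9orf40 to 3.91-fold for ADNP, and none was called with MS-275. That pattern follows from choosing them on these arrays by their likeness to KAT2A. Among the members, CREBBP followed KAT2A most closely (r = 0.99) and KAT8 next (r = 0.89), while KAT6A and KAT8 ran opposite (r = −0.81). These correlations describe 9 arrays that share lines and treatments and carry no test.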

How the data were processed

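Per the labels' protocols, Trizol RNA was DNase-treated and turned into biotinylated cRNA for Illumina bead arrays. The authors deposited bead intensity per probe, neither background-corrected nor normalized as far as the values show (array medians 104 to 139), each with a detection p-value. The authors also deposited log2 values (lumi, per the submitters' processing notes) that equal the quantile-normalized log2 intensities within 0.001 for all 199593 values. That match linked the probe names of both tables for all 22177 probes, and the platform annotation gave a symbol to 19708, several to 0 and none to 2469.

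Background was removed with nec of limma 3.58.1 in R 4.3.3 (offset 16), and log2 values were quantile-normalized and tested with Benjamini-Hochberg adjustment. Models of treatment and line had 4 residual degrees of freedom and were checked on simulated data. The brightest tested probe stood for a gene. The line was the block because each line gave 1 array per treatment. Arrays of the same line also deviated together (r = 0.866 to 0.934, and −0.694 to −0.156 for different lines). The line interaction, with the inhibitor as a term, left 2 residual degrees of freedom, not the planned 3. Slide and date are not given in the sources used here, so a batch was not tested.

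All members are named, with up to 3 called genes each way per partner list and comparison and the 5 genes most like the member with the largest SAHA change. Members and lists were chosen with earlier results of these data known. Alternatives changed the background correction, scaling, filter, probes, variance model, block and arrays used.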

Additional observations from a re-analysis of the deposited data

Results flagged for a closer look

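KAT7 met the criterion for a difference between lines because its treated arrays went opposite ways in NB4 and K562, although each difference involves an array on which it was not detected. In NB4 both inhibitor arrays were below the untreated array, with log2 changes of −0.36 for MS-275 and −0.33 for SAHA, and in K562 both were above it, with 0.09 and 0.15. In U937 the changes were −0.44 and 0.07. The mean treated-minus-untreated value of NB4 minus that of K562 was −0.47. Chance can give such opposite signs at background, and the difference between this pair of lines was not tested by itself. The F test of line dependence over all 3 lines gave an adjusted p of 1.00 in limma, and KAT7 was detected on 5 of the 9 arrays.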

How the results depend on the processing

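The fit without a replicate block (the line) lowered the member counts to 1 for SAHA, 0 for MS-275 and 1 for SAHA against MS-275, with 89, 2 and 61 genes in all. Leaving out a line gave 3 to 4 members for SAHA, 0 for MS-275 and 1 to 3 between the inhibitors. Over all genes it gave 1695 and 1053 for SAHA without K562 and U937, and 433 higher and 504 lower without NB4. Without NB4, K562 and U937 in turn it gave 2, 237 and 0 for MS-275 and 901, 1769 and 480 between them, with fewer arrays in each fit. The fit on the 6 arrays of MS-275 and untreated cells called 710 genes. Equal medians gave 5 members for MS-275 and 2223 genes. Probes detected on all arrays gave 2 members for MS-275 and 1 for NB4 against U937, with 1572 and 3851 genes in all. NB4 against K562 gave 6 members with equal medians and 5 without background correction or without a filter. Over all genes these 3 settings called 5686, 5651 and 5625. Leaving out a treatment gave 2 to 3 members for NB4 against K562 and 0 to 1 for NB4 against U937. Over all genes it called 4165 to 4923 and 3393 to 4111. The line interaction gave 0 members in every setting, also without the inhibitor term, a setting added after seeing the data.

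Directions turned only for members that were not called. With equal medians, KAT6A with SAHA became −0.015, HAT1 with SAHA −0.11, KAT8 with MS-275 −0.066, CREBBP in K562 against U937 −0.14, and KAT7 0.0010 in NB4 against U937 and 0.038 in K562 against U937, the last also 0.0067 without background correction. Without a line, KAT7 with SAHA ranged from −0.13 to 0.11, HAT1 with SAHA from −0.092 to 0.12, and SAHA minus MS-275 from −0.57 to 0.41 for KAT2B and from −0.030 to 0.11 for EP300. Without a treatment, NB4 minus K562 ranged from −0.056 to 0.12 for KAT2A, −0.057 to 0.32 for KAT5 and −0.17 to 0.072 for KAT7. NB4 minus U937 ranged from −0.85 to 0.085 for KAT2B, −0.11 to 0.13 for KAT7 and −0.024 to 0.15 for KAT8. K562 minus U937 ranged from −0.12 to 0.039 for KAT2A, −0.17 to 0.018 for KAT6A and −0.17 to 0.10 for KAT7. The causes were not tested. Of the other member differences with a test, 574 kept their direction and side of the threshold, 39 lost the call and 11 gained one. Of the values of the untreated lines alone, 22 lay within the spread and 8 moved beyond it. Sizes of dim members shrank without background correction, EP300, KAT5 and KAT6B by over 1.5 times.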
